A study of Mus musculus with 24 samples.

Results

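RNA polymerase II (Pol II) is built from 12 subunits, and the 10 genes described here, *Polr2a*, *Polr2b*, *Polr2c*, *Polr2d*, *Polr2e*, *Polr2f*, *Polr2g*, *Polr2h*, *Polr2i* and *Polr2k*, encode 10 of them. The genes were listed by symbol, and all 10 were found among the 55471 annotated genes of the SLIM-seq count table. The remaining subunit genes *Polr2j* and *Polr2l*, and *Polr2m*, a Pol II associated factor, were measured beside them. SLIM-seq profiles m6A, a methyl mark on adenosine in RNA, in small samples by immunoprecipitation (IP) with an antibody against m6A, and an input library without IP gives the mRNA level.

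Wild-type B6D2F1 mice were used throughout, with oocytes from superovulated females of 8 weeks of age. MII oocytes were collected at 14 to 16 h after hCG, late 1-cell (L1C) embryos at 27 to 29 h and late 2-cell (L2C) embryos at 48 to 50 h. Each stage had 3 input and 3 IP libraries, 18 in all. In the second experiment, zygotes received Cas13d mRNA together with crRNAs that target *Ythdc1*, an m6A reader of the nucleus (KD), or the Cas13d mRNA without crRNA (Ctrl), and 3 libraries per group were made at L2C. The Ctrl embryos carried the nuclease without any crRNA, so an effect of an unrelated crRNA cannot be told apart from one of the knockdown. Nothing in the labels says whether the libraries of a group came from separate collections of embryos, so p-values measure the spread between these libraries.

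The polymerase transcribes all protein-coding genes. *Polr2a* and *Polr2b* encode the large subunits that form the catalytic centre, and the product of *Polr2a* also carries the C-terminal domain (CTD), a repeated tail that is phosphorylated during the transcription cycle. The oocyte is transcriptionally silent at MII, and the embryo starts its own transcription after fertilization, with the major wave of zygotic genome activation (ZGA) at the 2-cell stage in the mouse. Until then the embryo depends on stored maternal RNA and protein.

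The SLIM-seq libraries held 11107421 to 39739950 counts and the 5 complete knockdown libraries 8696476 to 14500548. The count list of KD replicate 3 stops on chromosome 7, so of the 10 genes only *Polr2b* and *Polr2i* had 6 libraries, and the others had 2 KD and 3 Ctrl libraries. The markers matched the stages. The summed level of 10 oocyte transcripts in the inputs was 9673 CPM or more at MII (for the marker sums, counts scaled to the library total alone) and 1193 CPM or less at L2C, while 11 measured transcripts of the 2-cell stage summed to at most 34.3 CPM at MII and at least 601 CPM at L2C. The 12 cumulus cell markers summed to 52.7 to 61.9 CPM at MII and to 8.11 to 8.61 CPM at L2C, with *Ptx3* at 0 in every input. Fewer RNA molecules per embryo and a smaller share of the RNA cannot be told apart in these libraries.

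Between MII and L1C, 8 of the 10 subunit mRNAs fell and 1 rose in the inputs. Levels of single genes are given as CPM on library sizes adjusted by TMM, the scaling of edgeR. Of all 19903 genes tested, 24.3% were lower and 31.9% higher at a Benjamini-Hochberg adjusted p under 0.05 in edgeR's quasi-likelihood test, which is the rule for every call here. From L1C to L2C the picture turned: 8 rose, *Polr2g* fell and *Polr2c* did not pass the test, against 44.1% of all genes higher and 38.8% lower. The median log2 change of the 10 genes was -0.75 and then 2.60, beside 0.16 and 0.17 over all genes tested. Both steps use the same L1C inputs. *Polr2b* alone of the 10 rose at both steps, and *Polr2g* alone fell at both. How many of all genes took such paths was not counted. With a log2 change over 1 in size also required, 3 were lower and 1 higher at L1C (11.2% and 24.3% of all genes), and 8 were higher and 0 lower at L2C than at L1C (38.7% and 31.7%).

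**Figure D1:**
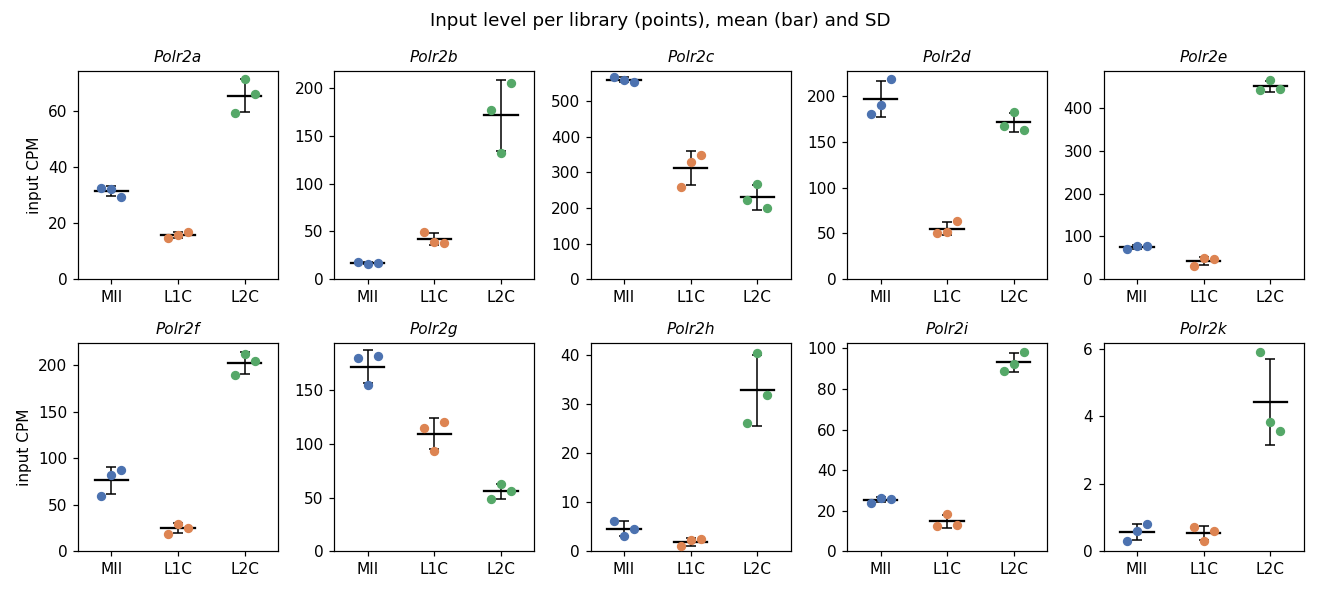
Input level of each subunit gene in CPM (counts scaled to the TMM-adjusted library size, vertical axis starting at 0) in MII oocytes, L1C and L2C embryos. Points are the 3 libraries, bars the mean and whiskers the SD. *Polr2c*, *Polr2d* and *Polr2g* have a lower mean at L2C than at MII, with overlapping libraries for *Polr2d*, and *Polr2b* climbs at each stage.

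The catalytic subunits took different paths after fertilization. *Polr2a* was measured at 32.7, 32.1 and 29.4 CPM in the MII inputs, at 14.9, 15.8 and 16.7 CPM at L1C and at 59.4, 71.4 and 66.0 CPM at L2C. The 3 stages did not overlap, with L1C lowest and L2C highest. The log2 change was -0.91 ± 0.13 (SE, adjusted p = 6.3e-05) from MII to L1C and 2.30 ± 0.14 (adjusted p = 1.1e-09) from L1C to L2C. *Polr2b* was at 18.5, 16.0 and 17.2 CPM at MII, at 48.9, 39 and 38.2 CPM at L1C and at 177, 132 and 205 CPM at L2C. Each stage stood above the one before it. Its log2 change was 1.37 ± 0.16 (adjusted p = 9e-06) and then 2.26 ± 0.16 (adjusted p = 7.7e-09). In the fit to the inputs alone, *Polr2b* was 12.5-fold higher at L2C than at MII. Its mean CPM on the scaling over 18 libraries, 17.2 at MII and 171 at L2C, give a smaller fold.

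*Polr2c* encodes the subunit that pairs with the product of *Polr2j* to start assembly of the enzyme. Its input level was 567, 560 and 552 CPM at MII, 257, 330 and 348 CPM at L1C and 221, 268 and 200 CPM at L2C. The L1C libraries all lay below MII, while the L1C and L2C libraries overlapped. The fitted log2 change was -0.76 ± 0.14 (adjusted p = 0.00052) to L1C and -0.20 ± 0.14 (adjusted p = 0.21) from there to L2C. On the scaling over 18 libraries the fall from L1C to L2C looks larger, with mean CPM of 312 and 230 for *Polr2c*. Its partner *Polr2j* fell by 1.49 ± 0.17 on the log2 scale (adjusted p = 5e-06) and then rose by 2.30 ± 0.17 (adjusted p = 1.2e-08), so the pair parted at L2C. *Polr2c* shares 60.4% of its gene span with *Dok4* on the opposite strand, and processed pseudogenes resemble its transcript, of which *Gm11993* on chromosome 11 has 98% identity over 1199 bases. With the counts of its pseudogene copies added, no call of *Polr2c* changed in these comparisons.

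*Polr2d* and *Polr2g* encode the stalk, a pair of subunits that sits on the core enzyme and can leave it. *Polr2d* was at 181, 191 and 220 CPM at MII, at 50.7, 51.7 and 63.7 CPM at L1C and at 168, 183 and 163 CPM at L2C. It was lowest at L1C, and its MII and L2C libraries overlapped. It fell by 1.75 ± 0.14 on the log2 scale (adjusted p = 1.5e-07), the largest fall among the 10. It then rose by 1.87 ± 0.14 (adjusted p = 1e-08). In the fit to the inputs alone this left it 0.12 ± 0.13 above MII (adjusted p = 0.39). The mean CPM of *Polr2d* on the scaling over 18 libraries, 197 at MII and 172 at L2C, run the other way. The direction of this difference, which did not pass the test, thus depends on the scaling. *Polr2g* was at 180, 155 and 182 CPM, then at 115, 93.4 and 121 CPM and then at 48.9, 62.7 and 56.3 CPM. Its 3 stages did not overlap and stepped down each time, in the fit to 2.45-fold below MII at L2C (log2 change -1.29 ± 0.14, adjusted p = 7.5e-07). The mean CPM of *Polr2g*, 172 at MII and 56.0 at L2C on the scaling over 18 libraries, give a larger fold.

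*Polr2e*, *Polr2f*, *Polr2h* and *Polr2k* encode subunits that all 3 nuclear polymerases share. They rose from L1C to L2C by 3.65 ± 0.17, 3.28 ± 0.19, 4.31 ± 0.32 and 3.23 ± 0.39 on the log2 scale. *Polr2e* reached 444, 467 and 445 CPM at L2C from 30.9, 49.8 and 46.8 CPM at L1C. The L2C libraries lay far above both earlier stages, whose own levels at MII were 70.7, 78.7 and 78.3 CPM. *Polr2f* moved from 59.8, 81.7 and 87.2 CPM at MII through 19.1, 29.8 and 25.1 CPM to 190, 213 and 205 CPM. *Polr2h* was scarce before L2C, with 21 to 117 counts per input library at MII and L1C, and rose from 1.02, 2.27 and 2.60 CPM at L1C to 26.1, 40.4 and 31.7 CPM. Its transcript resembles a stretch within *2700097O09Rik*, where the pseudogene *Gm7511* lies (804 bases at 95.7% identity), so its level is uncertain. Adding the counts of the pseudogene changed none of its calls. These were at most 23.2 per input library, too few to decide the matter. The counts of *2700097O09Rik*, up to 653 in the L2C inputs, were not added. *Polr2k* had 6 to 15 counts in the MII and L1C inputs and 85 to 180 at L2C. Its change from MII to L1C was 0.06 ± 0.47 (adjusted p = 0.94), and the depth of these counts leaves changes of that size undetectable. The fifth shared subunit gene, *Polr2l*, changed by -0.51 ± 0.22 (adjusted p = 0.063) and then rose by 4.48 ± 0.22 (adjusted p = 1.7e-10).

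*Polr2i* encodes a small subunit linked to transcriptional fidelity. It was at 23.99, 26.5 and 25.7 CPM at MII, at 12.5, 18.5 and 13.2 CPM at L1C and at 88.8, 92.1 and 98.3 CPM at L2C. All L1C libraries lay below MII and all L2C libraries above both. The log2 change was -0.70 ± 0.16 (adjusted p = 0.0017) and then 2.90 ± 0.16 (adjusted p = 5.1e-10). *Tbcb* on the opposite strand covers 22.5% of the span of *Polr2i* and had 528 to 7182 counts per input library, and reads from the shared stretch cannot be told apart without strand. *Polr2m*, whose product binds Pol II, rose at both steps, by 0.84 ± 0.16 (adjusted p = 0.00064) and 2.78 ± 0.16 (adjusted p = 8e-10).

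**Figure D2:**
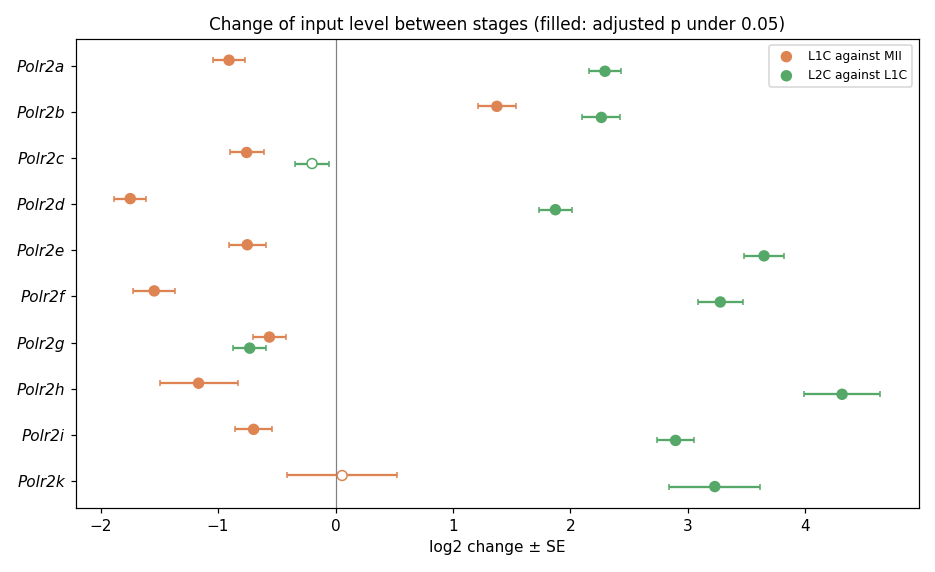
Log2 change of input level (horizontal axis) for each subunit gene, L1C against MII and L2C against L1C, with SE as whiskers. Filled points passed an adjusted p of 0.05. From MII to L1C 8 genes lie left of 0 and are filled, and from L1C to L2C 8 lie to the right.

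Compared with MII, 7 of the 10 were higher and 2 lower at L2C, against 47.5% and 37.1% of all genes tested. With a log2 change over 1 in size also required, 7 were higher and 1 lower (42.7% and 30.5%). *Polr2b* had the largest gain (log2 change 3.64 ± 0.17), followed by *Polr2k* (3.29 ± 0.39), *Polr2h* (3.15 ± 0.30) and *Polr2e* (2.90 ± 0.17), and neighbours in this order differed by less than the sum of their SEs. The mRNAs were far from equal in level. In the Ctrl L2C embryos, where reads were counted on exons, the mean level per kilobase of exon ran from 5.13 CPM for *Polr2a* and 39.5 CPM for *Polr2b* to 220 CPM for *Polr2g* and 313 CPM for *Polr2k*. The mRNA of the largest subunit was thus the lowest of the 10 on that scale. The divisor was all annotated exon bases, which for *Polr2f* are 2595, beside 452 in its first listed transcript. The upper end of the range therefore depends on the annotation.

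Promoters are shown for *Polr2a*, which rose from L1C to L2C, and *Polr2c*, whose change there did not pass the test. The pair was set by the annotation, and a link between motifs and levels was not tested. Shown are the 250 bases before the RefSeq start on GRCm38.p6, which lies within 5 bases of the GENCODE start only for these genes. The first is at chr11:69758634-69758883 on the minus strand and the second at chr8:94857200-94857449 on the plus strand. Capitals mark the GC box GGGCGG, the CCAAT box CCAAT and the TATA box TATAAA.
Polr2a: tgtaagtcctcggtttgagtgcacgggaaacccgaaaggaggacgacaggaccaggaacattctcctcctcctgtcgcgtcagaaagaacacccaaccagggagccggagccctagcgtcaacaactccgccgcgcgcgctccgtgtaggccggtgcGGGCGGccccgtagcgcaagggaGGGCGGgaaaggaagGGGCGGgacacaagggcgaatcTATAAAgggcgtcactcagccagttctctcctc
Polr2c: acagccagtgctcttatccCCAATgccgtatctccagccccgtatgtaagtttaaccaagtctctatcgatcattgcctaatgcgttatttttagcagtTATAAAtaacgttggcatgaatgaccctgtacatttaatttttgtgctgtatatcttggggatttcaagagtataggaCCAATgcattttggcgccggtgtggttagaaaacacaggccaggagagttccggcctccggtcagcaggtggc
The window of *Polr2a* holds 3 GC boxes and 1 TATA box, at 62.8% GC. That of *Polr2c* holds no GC box, 2 CCAAT boxes and 1 TATA box, at 45.6% GC. For 7 of the 10 genes 8 windows were at hand, 2 of them for *Polr2h*, and *Polr2d*, *Polr2g* and *Polr2k* were not matched. In *Polr2b*, *Polr2e*, *Polr2f*, *Polr2h* and *Polr2i* the RefSeq start lies 126 to 512 bases past the GENCODE start. The windows of *Polr2b* and *Polr2f* and 1 of *Polr2h* lie wholly inside the annotated gene. A GC box on either strand was found in 6 of the 8 windows, while 32.7% of 32851 windows of this length hold one. The 6 belong to *Polr2a*, *Polr2b*, *Polr2e*, *Polr2h* and *Polr2i*. CCAAT was found in 2 of 8 (33.8% of all windows), TATAAA in 2 of 8 (12.4%) and the ETS motif CCGGAAG in 1 of 8 (6.91%).

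The genes around the polymerase were followed through lists, to be read against 24.3% of all genes lower and 31.9% higher from MII to L1C, and 44.1% higher and 38.8% lower from L1C to L2C. Of 21 general transcription factor genes, which place Pol II at promoters, 12 fell and 3 rose from MII to L1C, and 16 rose and 4 fell from L1C to L2C. *Gtf2a1l*, a germ cell form of a TFIIA subunit, fell at both steps (log2 change -2.08 ± 0.14 and -3.69 ± 0.17), while *Gtf2h4* of TFIIH rose by 3.08 ± 0.17 at L2C. Of 21 genes for assembly and nuclear import of Pol II, 8 fell and 4 rose to L1C, and 16 rose and 5 fell to L2C. The prefoldin gene *Pfdn6* rose by 5.56 ± 0.27 at L2C, and *Tti1* fell by 2.39 ± 0.14. Of 19 subunit genes that belong to Pol I or Pol III alone, 7 fell and 7 rose to L1C, and 17 rose and 1 fell to L2C. Here *Polr3e* rose by 5.62 ± 0.17 and *Polr3f* fell by 1.19 ± 0.14. Of 6 CTD phosphatase genes, 4 fell and none rose to L1C, and at L2C 3 rose and *Rpap2* fell (log2 change -1.98 ± 0.12).

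The genes closest in pattern were searched among 8445 protein-coding genes with a mean of at least 10 CPM, by the root mean square difference of centred log2 CPM over the 9 inputs. Nearest to *Polr2a* were *Cdc20* (0.089), *Ctc1* (0.095) and *Mroh1* (0.11). Nearest to *Polr2b* were *Dppa2* (0.12), *Mapk14* (0.16) and *Etf1* (0.18). Of the listed genes that reached this level, *Polr2i* was the closest to *Polr2a*, at rank 451 (0.39).

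The IP was then compared with the input at each stage. At MII, 5 subunit mRNAs were enriched in the IP and 1 was depleted, against 17.7% and 21% of 21950 genes tested. At L1C 5 were enriched and none depleted (15.8% and 18.2%), and at L2C 3 were enriched and 3 depleted (22% and 22%). With DESeq2, or with libraries scaled to their size alone, 7 were enriched at L1C, *Polr2e* and *Polr2i* being the added genes. The scaling by size alone gave 5 enriched and 1 depleted at L2C. The stalk genes *Polr2d* and *Polr2g* were enriched at all 3 stages, and no other of the 10 was in this fit. The share of all genes enriched at all 3 stages was not counted, so this is not read as particular to the stalk. With libraries scaled to their size alone, *Polr2f* and *Polr2h* were also enriched at all 3 stages, with adjusted p of at most 0.014 and 0.035, but that scaling also lifts the median log2 IP/input of all genes to 0.20, 0.37 and 0.34 at the 3 stages. The inputs of a stage enter both its IP/input and the changes of level, so these values are not independent. IP/input here is a ratio for a whole gene relative to the other RNAs of the library, and does not give the share of molecules with m6A or their sites.

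*Polr2d* had 311, 275 and 301 CPM in the MII IP libraries beside 181, 191 and 220 CPM in the inputs, with no overlap. Its log2 IP/input was 0.58 ± 0.14 (adjusted p = 0.0022) at MII, 0.44 ± 0.14 (adjusted p = 0.019) at L1C and 0.61 ± 0.14 (adjusted p = 0.0015) at L2C. *Polr2g* had 283, 299 and 242 CPM in the MII IP libraries beside 180, 155 and 182 CPM in the inputs. Its values were 0.67 ± 0.13 (adjusted p = 0.00031), 0.68 ± 0.13 (adjusted p = 0.0004) and 0.48 ± 0.13 (adjusted p = 0.0055). The IP and input libraries of both genes were apart at every stage, and how many of all genes share this was not counted. At L1C the call of *Polr2d* was lost without L1C input replicate 1 (0.38, adjusted p = 0.078) or replicate 2 (0.39, adjusted p = 0.079) and without L1C IP replicate 1 (0.34, adjusted p = 0.12).

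*Polr2b* crossed from enriched to depleted. Its IP libraries held 44.7, 38.3 and 39.4 CPM at MII, 45.2, 41.9 and 38.3 CPM at L1C and 107, 112 and 104 CPM at L2C. They lay above all inputs at MII, among them at L1C and below them at L2C. The log2 IP/input was 1.25 ± 0.15 (adjusted p = 1.6e-06), -0.01 ± 0.14 (adjusted p = 0.98) and -0.67 ± 0.14 (adjusted p = 0.00081). The difference between L2C and MII was -1.92 ± 0.20 (adjusted p = 2.9e-06), in a comparison where 9.21% of all genes were lower and 11.1% higher. *Polr2b* was also the only one of the 10 whose change of ratio between MII and L1C passed the test (-1.26 ± 0.21, adjusted p = 0.00059, beside 4.21% of all genes lower and 3.13% higher).

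The other large subunit went a different way. *Polr2a* was depleted at MII, with 16.6, 23.3 and 15.9 CPM in the IP below every input, and a log2 IP/input of -0.75 ± 0.17 (adjusted p = 0.0012). At L1C and L2C its values were -0.36 ± 0.17 (adjusted p = 0.11) and -0.27 ± 0.16 (adjusted p = 0.17). *Polr2c* was depleted at L2C (-0.38 ± 0.13, adjusted p = 0.022, or 0.054 with a replicate block), with values of -0.31 ± 0.13 and -0.32 ± 0.13 at the stages before. The call at L2C was lost without L2C input replicate 2 (-0.26, adjusted p = 0.12), L2C IP replicate 2 (-0.30, adjusted p = 0.091) or L2C IP replicate 3 (-0.39, adjusted p = 0.051).

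Among the shared subunits, *Polr2e* had a log2 IP/input of -0.45 ± 0.15 at L2C (adjusted p = 0.018), below its values of 0.21 ± 0.15 at MII and 0.32 ± 0.15 at L1C. The differences were -0.67 ± 0.21 (adjusted p = 0.031) and -0.77 ± 0.21 (adjusted p = 0.028, in a comparison with 4.47% of all genes lower and 5% higher). They did not pass in 4 and 5 of the 18 fits that left out 1 library. *Polr2f* was enriched at MII (0.72 ± 0.21, adjusted p = 0.0089) and L1C (1.13 ± 0.21, adjusted p = 0.00035), and *Polr2h* at L1C (1.00 ± 0.29, adjusted p = 0.011). *Polr2k* was enriched at L1C (1.53 ± 0.39, adjusted p = 0.0045) and at L2C (2.06 ± 0.29, adjusted p = 1.6e-05), where its IP libraries held 16.0, 20.9 and 18.6 CPM beside 5.89, 3.83 and 3.55 CPM in the inputs. *Polr2i* was enriched at MII (0.69 ± 0.17, adjusted p = 0.0031) and had a value of 0.04 ± 0.16 at L2C (adjusted p = 0.86). The difference between these stages did not pass the test (-0.65 ± 0.24, adjusted p = 0.061), but passed with DESeq2 (adjusted p = 0.013), without a filter on low counts (0.029) and with only the libraries of both stages (0.0011). With libraries scaled to their size alone, the depletion of *Polr2c* and *Polr2e* at L2C did not pass the test. *Polr2f* at MII did not pass without MII input replicate 1 (0.57, adjusted p = 0.058), nor *Polr2h* at L1C without L1C input replicate 1 (0.67, adjusted p = 0.067), nor *Polr2e* at L2C without L2C IP replicate 2 (-0.33, adjusted p = 0.092).

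**Figure D3:**
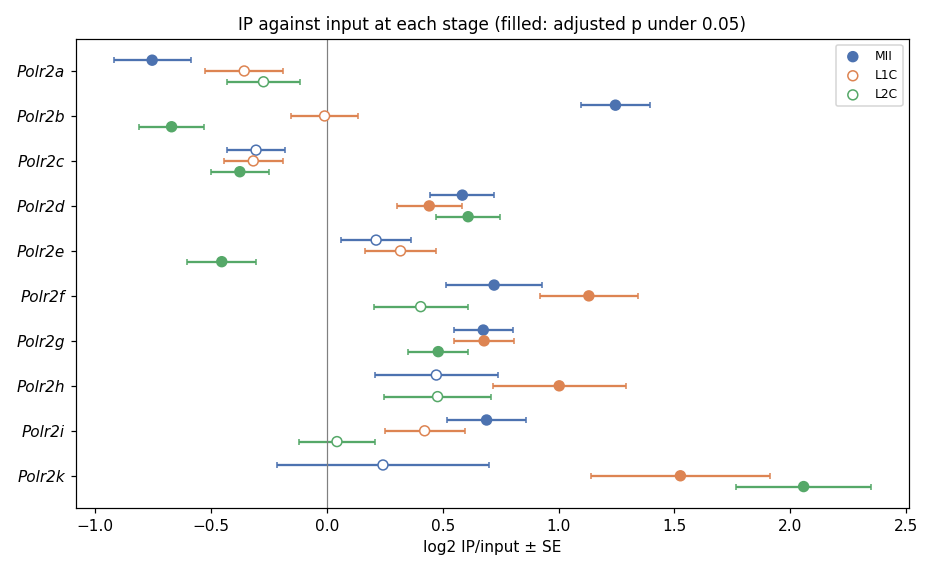
Log2 IP/input (horizontal axis) of each subunit gene at MII, L1C and L2C, with SE as whiskers and filled points for an adjusted p under 0.05. *Polr2d* and *Polr2g* are filled and right of 0 at all stages, and *Polr2b* moves from 1.25 to -0.67.

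The core of the common m6A motif, GGACT, was counted in the first listed transcript of each gene. It was present in 9 of the 10, a share close to the 84.4% of protein-coding transcripts that hold it, and absent from *Polr2d*. *Polr2f* had 2 sites in 452 bases, or 4.42 per kilobase, above 99.5% of 21291 protein-coding transcripts, whose median was 1.03 per kilobase. *Polr2g* followed with 2.25 per kilobase and *Polr2a* had 1.04. The sites in the coding sequence of the 6 genes that were enriched at 1 or more stages and have one follow, each in the middle of 21 bases of the sense strand with the motif in capitals (GENCODE M21, GRCm38).
Polr2b, exon 19, chr5:77342684-77342688: accaagagGGACTgcagcact
Polr2b, exon 24, chr5:77348375-77348379: taacacgaGGACTcatacata
Polr2f, exon 2, chr15:79144634-79144638: aggacgaaGGACTtgacgact
Polr2f, exon 5, chr15:79151643-79151647: agctatgaGGACTggggcgtg
Polr2g, exon 4, chr19:8794523-8794527: acaaggttGGACTtttcacag
Polr2h, exon 2, chr16:20718900-20718904: taccctgtGGACTtaggtgac
Polr2h, exon 5, chr16:20721985-20721989: tttgaggtGGACTccagagtt
Polr2i, exon 6, chr7:30233337-30233341: ccaccgctGGACTgagtgatc
Polr2k, exon 3, chr15:36175465-36175469: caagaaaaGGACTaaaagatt
A match is a description of the sequence, and methylation at these bases was not measured.

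In the *Ythdc1* knockdown, the target was measured first. *Ythdc1* was at 202 and 208 CPM in the 2 complete KD libraries and at 416, 422 and 380 CPM in Ctrl, with no overlap (log2 change -0.99 ± 0.08). Of the 10 subunit genes 6 rose and 3 fell in KD embryos, and *Polr2f* did not pass the test (0.14 ± 0.11, adjusted p = 0.27). Over all 17074 genes tested, 30.5% were higher and 36.4% lower. By the thresholds of the study, an unadjusted p under 0.05 and a log2 change over 1 in size, *Polr2h* was the 1 gene that rose and 0 fell, against 14.4% and 24.5% of all genes. The stage markers moved too: the oocyte transcripts summed to 1190 to 1275 CPM in KD and 2577 to 2629 CPM in Ctrl, and the 2-cell transcripts to 337 to 375 CPM in KD and 1119 to 1141 CPM in Ctrl. Their part in the changes of the subunit genes was not tested.

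The 3 that fell were *Polr2a*, *Polr2c* and *Polr2g*. *Polr2a* was at 21.8 and 19.9 CPM in KD and at 34.9, 34.4 and 39.4 CPM in Ctrl (log2 change -0.79 ± 0.12, adjusted p = 3.2e-05). *Polr2c* was at 196 and 227 CPM in KD and at 305, 307 and 346 CPM in Ctrl (-0.59 ± 0.09, adjusted p = 3.3e-05). *Polr2g* was at 159 and 158 CPM in KD and at 269, 277 and 277 CPM in Ctrl (-0.79 ± 0.08, adjusted p = 4.7e-07). In each of these genes every KD library lay below every Ctrl library, as in 41.6% of all genes tested.

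*Polr2h* rose most, from 89.9, 99.7 and 110 CPM in Ctrl to 226 and 228 CPM in KD, which is 2.28-fold (log2 change 1.19 ± 0.09, adjusted p = 3.3e-08). *Polr2d*, the partner of *Polr2g* in the stalk, rose from 213, 212 and 230 CPM to 365 and 369 CPM (0.75 ± 0.08, adjusted p = 5.6e-07). The stalk genes thus moved in opposite directions. *Polr2i* (0.70 ± 0.12), *Polr2k* (0.68 ± 0.09) and *Polr2e* (0.62 ± 0.11) also rose, with every KD library above every Ctrl library, as in 35.1% of all genes tested. *Polr2b* rose by 0.23 ± 0.08 (adjusted p = 0.021), and on the shorter table with all 6 libraries by 0.26 ± 0.07, where *Polr2i* rose by 0.68 ± 0.10. Among its 7433 tested genes, 33.5% were higher and 37.4% lower, or 14.7% and 22.5% by the thresholds of the study, which neither gene met. Without KD replicate 1 the change of *Polr2b* was 0.17 (adjusted p = 0.22), in a fit with 1 KD library, which is assumed to vary like the Ctrl libraries.

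**Figure D4:**
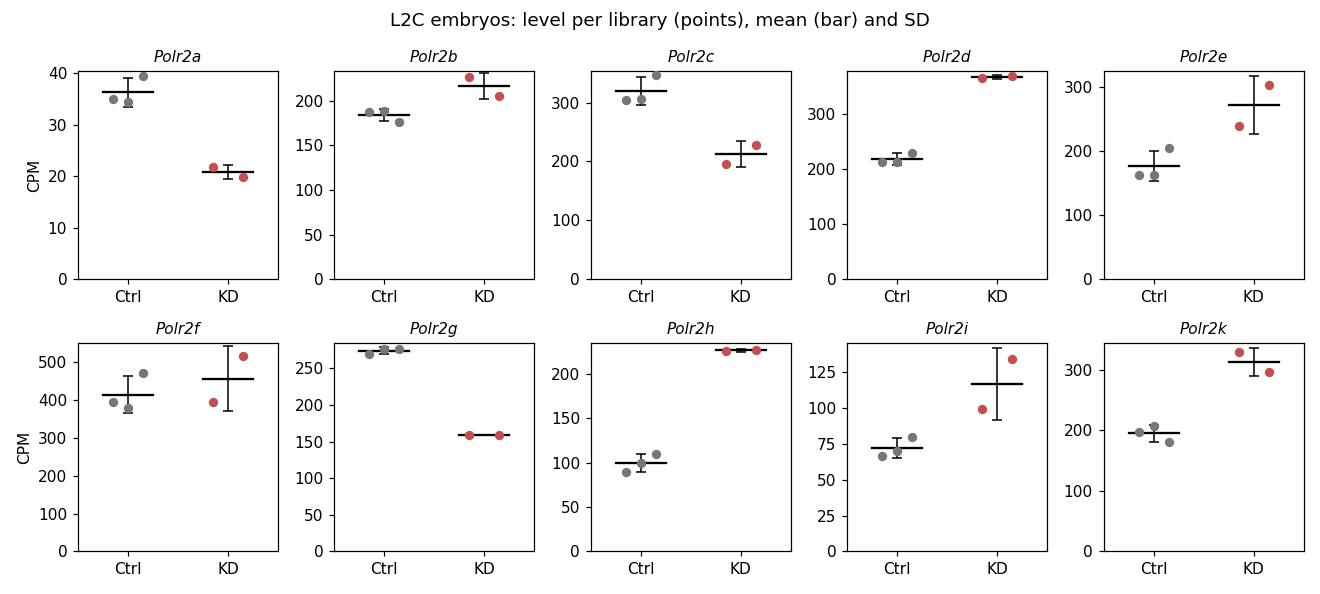
Level of each subunit gene in L2C embryos (CPM, vertical axis starting at 0) in 3 Ctrl and 2 KD libraries, shown as points with mean and SD. *Polr2a*, *Polr2c* and *Polr2g* are lower in KD. The libraries overlap for *Polr2f* and are apart for the other 9 genes, as they are for 76.7% of all genes tested.

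Other Pol II genes and the lists were also measured in KD embryos. *Polr2m* rose by 1.85 ± 0.13 (adjusted p = 1.8e-08), *Polr2l* rose by 0.33 ± 0.10 (adjusted p = 0.0059) and *Polr2j* fell by 0.29 ± 0.08 (adjusted p = 0.0052). Beside the 30.5% of all genes higher and 36.4% lower, 14 of 19 subunit genes of Pol I or Pol III alone rose and 1 fell, and of the assembly and import genes 14 of 21 rose and 2 fell. Of the general transcription factor genes 10 of 21 rose and 4 fell, and of the CTD phosphatase genes 1 of 6 rose and 3 fell.

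The L2C inputs and the Ctrl embryos give separate measurements of the late 2-cell stage, but differ in more than the counting. Ctrl embryos had received Cas13d mRNA. Their oocyte transcripts summed to 2577 to 2629 CPM, beside 1160 to 1193 CPM in the L2C inputs. Their 2-cell transcripts summed to 1119 to 1141 CPM, beside 601 to 794 CPM. The part of each difference in the ratios was not tested. The ratio of mean CPM, L2C input over Ctrl, ran from 0.20 for *Polr2g* to 2.56 for *Polr2e* in 9 of the genes, and was 0.023 for *Polr2k*. Over 6955 protein-coding genes with at least 10 CPM in Ctrl the median ratio was 0.77, and 5% of them lay under 0.0845. *Polr2k* stood at 4.42 CPM in the inputs and 195 CPM in Ctrl. Its transcript matches other places of the genome at 90% identity or more over at least 150 bases. The closest is the pseudogene *Gm14567* on chromosome X, where 423 bases align at 100% identity. It had up to 68 counts in a Ctrl library and 109 in a KD library. Another lies within *Sde2*, where 412 bases align at 97.6% identity. Reads from *Polr2k* can therefore be split between targets, its SLIM-seq level and IP/input are uncertain, and the part of these copies in the low level was not tested.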

How the data were processed

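SLIM-seq reads were assigned by the authors with kallisto, and the estimated counts and TPM values they deposited treat each gene, introns included, as 1 target. Knockdown reads were cleaned with Trimmomatic and mapped to GRCm38 with HISAT2, and the deposited counts are exon counts made by featureCounts 2.0.1 without a strand option. KD replicate 3 and the merged table of 25739 genes stop on chromosome 7, and 37.5% to 39% of the counts of the other libraries lie on its genes. Estimated counts were rounded.

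Counts were fitted with edgeR 4.0.16 in R 4.3.3 (TMM scaling, filterByExpr, quasi-likelihood test), with p-values adjusted by Benjamini-Hochberg over all genes tested. IP/input used all 18 libraries, changes of level the 9 inputs, and the knockdown 5 libraries, or 6 on the merged table. CPM values are scaled by TMM, those of the inputs and IPs over all 18 libraries, except that sums of marker genes are scaled to the library total alone. SE is the log2 change divided by the square root of F. Alternatives were DESeq2 1.42.0, scaling by library size, keeping genes of low counts, a replicate block, fewer stages, leaving out each library, and the study's thresholds. Summing pseudogene copies was chosen after seeing the data. Copies were found with blastn 2.17.0, and promoter windows came from RefSeq. Python 3.11.15 with matplotlib 3.10.9 served for tables and plots.

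The genes, the lists and the tests were chosen with earlier results of these data known. Named genes were the 10 subunit genes, *Polr2j*, *Polr2l*, *Polr2m*, *Ythdc1*, the called gene with the largest change per list and direction, of which a selection is given, and the 3 genes nearest in pattern to *Polr2a* and *Polr2b*. Inputs and IPs came from the same batches of RNA by the study's methods, but no source used here says that a replicate number marks a batch, so the main fits have no replicate block.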

Additional observations from a re-analysis of the deposited data

Results flagged for a closer look

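A change of IP/input between stages passed the test, as a difference of differences over the 18 libraries, in 6 cases. *Polr2b* was lower at L1C than at MII (log2 difference -1.26), lower at L2C than at L1C (-0.66, adjusted p = 0.045 by edgeR, or 0.078 with a replicate block) and lower at L2C than at MII (-1.92). *Polr2e* was lower at L2C than at L1C (-0.77) and than at MII (-0.67), and *Polr2k* was higher at L2C than at MII (1.82, adjusted p = 0.024). The step of *Polr2b* from L1C to L2C did not pass in 15 of 18 fits that left out 1 library, with adjusted p up to 0.12, and that of *Polr2k* did not pass in 5, rising to 0.11 without MII input replicate 3. *Polr2k* had 6 to 15 counts in the MII and L1C inputs. *Polr2e* did not pass in 5 of 18 such fits against L1C and in 4 against MII, with adjusted p up to 0.074 and 0.071.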

How the results depend on the processing

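All calls of the subunit genes between stages in the inputs were kept under every alternative fit run, and *Polr2c* gained a call from L1C to L2C without L1C input replicate 1 (-0.35) or L2C input replicate 2 (-0.34). In the knockdown, *Polr2b* lost its call with library size alone (0.16), without KD replicate 1 (0.17, with the lone KD library assumed to vary like Ctrl) and without Ctrl replicate 2 (0.24), and *Polr2f* ranged from -0.054 to 0.33 with libraries left out. With library size alone the median log2 IP/input of all genes moved from 0 to 0.20 at MII, from 0.067 to 0.37 at L1C and from 0.087 to 0.34 at L2C. There 5 subunit genes were then enriched and 1 depleted at L2C, *Polr2b* at L1C was at 0.29, *Polr2c* from MII to L1C at 0.052, and 1 gene was higher in the merged knockdown table.

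A log2 change over 1 in size left 3 genes lower from MII to L1C, 0 from L1C to L2C and 1 from MII to L2C. The thresholds of the study left 1 gene higher and 0 lower in the knockdown, and 0 higher in the merged table. With only the libraries of the stages compared, 2 genes were depleted at MII, and the changes of IP/input were -0.080 for *Polr2g* from MII to L1C, -0.11 for *Polr2a* and -0.013 for *Polr2d* from L1C to L2C, and -0.16 for *Polr2h* and -0.14 for *Polr2d* from MII to L2C. Without a filter, *Polr2f* gained a call for lower IP/input at L2C than at L1C (-0.77, adjusted p = 0.0095), *Polr2g* was at -0.0030 from MII to L1C, and *Polr2h* at -0.036 and *Polr2d* at -0.027 from MII to L2C. With DESeq2, *Polr2b* at L1C was at 0.033, *Polr2g* at -0.017, *Polr2h* at -0.079 and *Polr2d* at -0.037 in the same comparisons, and *Polr2k* in the inputs from MII to L1C at -0.0065. With pseudogene copies summed, *Polr2c* was at 0.034 from MII to L1C and *Polr2h* at -0.00043 from MII to L2C. None of these genes was called in the comparison where its sign turned, and the cause was not tested.

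Replicate numbers are shared by the groups, but the deviations of libraries with the same number correlated from -0.31 to 0.32, and did not show a pairing. The inputs and IPs came from the same batches of RNA, and whether a number marks a batch is not given in the sources used here. With the replicate block, *Polr2b* lost its call for IP/input from L1C to L2C (-0.65), so that 1 gene instead of 2 was lower in IP/input from L1C to L2C, *Polr2c* at L2C lost its call (-0.37), *Polr2f* gained one in the knockdown (0.23), *Polr2c* from MII to L1C was at 0.0017 and *Polr2h* from MII to L2C at -0.0063.

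With each library left out in turn, the number of depleted genes ranged from 1 to 2 at MII, 0 to 1 at L1C and 1 to 3 at L2C, the number enriched at L1C from 3 to 6, and the number lower in the inputs from L1C to L2C from 1 to 2. At L1C, 3 were enriched without L1C input replicate 1, and at L2C 1 was depleted without L2C IP replicate 2. The number of genes with lower IP/input ranged from 0 to 2 from L1C to L2C and from 1 to 3 from MII to L2C, and with higher IP/input from 0 to 2 from MII to L2C. The log2 IP/input ranged from -0.073 to 0.55 for *Polr2k* at MII, from -0.11 to 0.11 for *Polr2b* at L1C and from -0.074 to 0.12 for *Polr2i* at L2C. Its change from MII to L1C ranged from -0.10 to 0.074 for *Polr2g*, from -0.085 to 0.23 for *Polr2e* and from -0.14 to 0.072 for *Polr2c*. From L1C to L2C it ranged from -0.16 to 0.060 for *Polr2c*, from -0.050 to 0.24 for *Polr2a* and from -0.019 to 0.29 for *Polr2d*. From MII to L2C it ranged from -0.28 to 0.21 for *Polr2h*, from -0.17 to 0.15 for *Polr2d* and from -0.17 to 0.045 for *Polr2c*. *Polr2k* in the inputs from MII to L1C ranged from -0.27 to 0.36.

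The knockdown has 2 KD libraries for 8 of the 10 genes, and counts of *Polr2h* and *Polr2k* before L2C limit what can be seen of them.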
